A study of Homo sapiens with 9 samples.

Results

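The clustered histone genes were followed in NB4, an established human cell line from acute promyelocytic leukaemia with the PML-RARA fusion. They were taken as every row of both deposited expression tables whose symbol starts with HIST1H, HIST2H, HIST3H or HIST4H and names a single gene. This gave 67 genes of the 36119 loci in the knockout table and the 35856 loci in the treatment table. They comprised 8 H1 linker histone genes, 16 H2A, 17 H2B, 12 H3 and 14 H4 genes. Of the 67, 9 had no protein-coding match in RefSeq and were taken as pseudogenes, HIST2H2BC and HIST2H2BD among them. Another 5 rows that joined 2 histone symbols and 1 symbol listed in the knockout table alone were left out.

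RNA was sequenced from LSD1 KO cells (2 libraries) and WT cells (2 libraries), both not treated, and from cells kept for 24 h in MC_2580 with RA 0.01 uM, in MC_2580, in RA 0.01 uM, in RA 1 uM or in DMSO (1 library each). LSD1, encoded by KDM1A, is a histone demethylase, MC_2580 is known as an inhibitor of it, RA is retinoic acid, which drives NB4 cells to mature, and DMSO is the vehicle. The labels give no dose of MC_2580, do not say how LSD1 was disrupted or whether the KO cells are 1 clone, and do not say whether replicates came from separate cultures, so a p-value covers the spread among these libraries, which may be technical. KDM1A, given in FPKM (fragments counted per transcript length and per library size), was at 14.0 and 16.8 FPKM in KO, against 49.8 and 66.6 FPKM in WT, and 50.8 to 69.9 FPKM in the treatment libraries.

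Core histones H2A, H2B, H3 and H4 form the nucleosome, and H1 binds the DNA between nucleosomes. Most clustered histone genes are transcribed mainly in S phase, and their mRNAs end in a short stem-loop in place of a poly(A) tail. The stem-loop is bound by SLBP, which carries the mRNA through processing, export and translation. Some clustered genes, among them HIST1H1C, HIST1H2BC, HIST1H2BD and HIST1H2BK, are also known to give polyadenylated transcripts, above all in cells that have left the cell cycle. The labels name a TruSeq V2 kit for the libraries and do not state whether poly(A) RNA was selected.

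The stem-loop is shown because it decides how these mRNAs end. A search of GENCODE v29 transcripts (GRCh38) for the 16-base histone stem-loop motif on the transcribed strand, with 5 positions free to hold any base, found it in 26 of the 67 genes, and in 0.136% of all 58721 annotated genes. In the lines below the stem-loop is in capitals, with 5 bases on each side, 5′ to 3′.
HIST1H2BD: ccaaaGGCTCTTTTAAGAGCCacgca
HIST1H2BC: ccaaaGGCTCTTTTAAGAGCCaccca
HIST1H2AE: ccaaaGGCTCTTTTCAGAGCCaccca
HIST1H4J: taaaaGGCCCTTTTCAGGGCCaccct
HIST2H4B: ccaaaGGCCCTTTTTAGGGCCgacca
The capitals lie at chr6:26158587-26158602 on the plus strand for HIST1H2BD, chr6:26123472-26123487 on the minus strand for HIST1H2BC, chr6:26217417-26217432 on the plus strand for HIST1H2AE, chr6:27824459-27824474 on the plus strand for HIST1H4J and chr1:149860769-149860784 on the minus strand for HIST2H4B. The form in HIST1H2AE was the commonest, with 11 genes of the H2A, H2B and H3 classes. The form in HIST1H2BC and HIST1H2BD was shared by 5 H2B and H3 genes, and the forms in HIST1H4J (4 genes) and HIST2H4B (3 genes) were found among the 26 in H4 genes alone. In 18 of the 26 genes at least 1 annotated transcript ran more than 100 bases past the stem-loop, and in 8 none did. Of the 41 genes with no match, 28 had no annotated transcript that ran past the coding sequence, so the search could not reach their ends, and 7 were pseudogenes with no annotated coding sequence.

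Promoters are shown for the 2 genes with the highest mean levels, HIST1H2BK and HIST1H1C, from RefSeq (GRCh38.p14), each from 250 bases before to 50 after the transcription start. Capitals mark the motifs searched on both strands: the TATA box TATAAA, the CCAAT box CCAAT, the octamer ATTTGCAT, known to bind OCT1, and the H1 box AAACACA. Matches of different motifs do not overlap in these 2 windows, but the TATA box farthest from the HIST1H2BK start is matched on both strands, 2 bases apart.
HIST1H2BK: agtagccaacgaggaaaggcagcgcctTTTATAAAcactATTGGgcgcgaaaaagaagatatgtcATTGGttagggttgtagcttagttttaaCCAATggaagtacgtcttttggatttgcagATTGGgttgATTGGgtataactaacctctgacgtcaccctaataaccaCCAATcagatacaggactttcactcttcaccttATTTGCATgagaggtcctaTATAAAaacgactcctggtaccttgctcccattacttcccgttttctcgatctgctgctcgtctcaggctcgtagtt
HIST1H1C: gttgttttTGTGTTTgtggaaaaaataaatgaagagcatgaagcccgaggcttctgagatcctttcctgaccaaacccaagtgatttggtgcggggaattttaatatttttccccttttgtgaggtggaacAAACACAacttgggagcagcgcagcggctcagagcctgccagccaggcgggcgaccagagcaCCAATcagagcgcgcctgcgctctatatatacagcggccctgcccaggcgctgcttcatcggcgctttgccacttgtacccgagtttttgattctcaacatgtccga
The HIST1H2BK window is chr6:27146809-27147108 and the HIST1H1C window chr6:26056421-26056720, both on the minus strand. HIST1H2BK has the octamer 46 bases and a TATA box 27 bases before its start, and HIST1H1C has an H1 box 119 bases and a CCAAT box 57 bases before its start. HIST1H1C has no TATAAA in its window.

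A promoter was found for 54 of the 67 genes, and their motifs differed between the histone classes. Each gene was counted 1 time, as holding a motif if any of its listed promoters held it. The H1 box stood in 6 of 6 H1 promoters, in 2 of 10 H3 promoters and in 0 of the 12 H2A, 14 H2B and 12 H4 promoters, against 6.94% of all 27305 genes with a RefSeq promoter. The octamer stood in 10 of 14 H2B promoters and 8 of 12 H2A promoters, in 1 H3 promoter and in 0 H1 and H4 promoters, against 2.19% of all these genes. CCAAT stood in every H1, H2A, H2B and H3 promoter found and in 3 of 12 H4 promoters, against 39.7% of all. TATAAA stood in 3 H1, 9 H2A, 9 H2B, 8 H3 and 7 H4 promoters, against 14.0% of all. There were 8 pairs of clustered genes that start within 500 bases of each other on opposite strands, so that their promoters share bases.

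The clustered histone genes were listed at low levels throughout. Per library, 8.96% to 19.4% of those measured reached 1 FPKM, against 54.6% to 57.3% of protein-coding genes. Across the 9 libraries 23 of the 67 reached 1 FPKM at least once, 3 reached 5 FPKM, 4 stayed at 1 FPKM or more in every library that measured them, and 7 were listed at 0 everywhere. The sources used here give no read totals, so the number of reads behind a low value is unknown. From the spacing of low values, 1 FPKM stood for 1.02 and 1.33 times as many reads in KO 1 and KO 2, and 1.66 times as many in WT 2, as in WT 1. The 2 tables were normalized separately, and levels are set side by side across them without a test. Of the 67 genes, 15 in the locus chr6:26129885-26314243 (hg18) had a failed status and no value in the DMSO and RA 1 uM libraries, which left 52 with a value in all 9 libraries.

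HIST1H2BK, an H2B gene in chr6:27214052-27222598 (hg18), had the highest mean level. It had 13.8 and 11.1 FPKM in the KO libraries and 10.5 and 7.14 FPKM in the WT libraries. After treatment it had 12.0 FPKM in the combination of MC_2580 with RA 0.01 uM, 10.1 FPKM in MC_2580, 10.0 FPKM in DMSO, 10.8 FPKM in RA 0.01 uM and 11.5 FPKM in RA 1 uM. It made up 23.5% to 43.8% of the summed FPKM of the 52 genes measured everywhere. The 4 genes of the polyadenylated group that stand in rows of their own had ranks 1 (HIST1H2BK), 2 (HIST1H1C), 4 (HIST1H2BC) and 5 (HIST1H2BD) of the 67 by mean level over the libraries of both tables. Within single libraries HIST1H2BK had rank 1 in 8 of 9 and rank 2 in KO 2, HIST1H2BC had ranks 2 to 4 and HIST1H2BD ranks 4 to 9. HIST1H1C had ranks 1 to 3 in KO and WT libraries, but 6 in the combination, 8 in MC_2580 and 4 in RA 0.01 uM, so its rank by mean level rests on the knockout table. Rank 3 by mean level was HIST1H2BH, an H2B gene whose annotated transcript runs 1640 bases past its stem-loop.

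The other classes were lower. The 4 highest H2A genes, HIST2H2AA4, HIST1H2AM, HIST1H2AE and HIST1H2AH, averaged 1.08, 0.718, 0.668 and 0.511 FPKM over the 9 libraries. Among H3 genes HIST1H3F, HIST1H3D, HIST1H3B and HIST1H3J averaged 0.808, 0.657, 0.596 and 0.270 FPKM over the libraries that measured them. The H4 genes HIST1H4C, HIST1H4J, HIST2H4B and HIST1H4H averaged 1.03, 0.573, 0.497 and 0.427 FPKM. After HIST1H1C the highest H1 entries were HIST1H1B at 0.373 FPKM, HIST1H1E at 0.366 FPKM and the pseudogene HIST1H1PS1 at 0.345 FPKM. Neighbours in these orders overlapped in their ranges over the libraries. Of the testis histone genes, HIST1H1T, HIST1H2AA and HIST1H2BA were listed at 0 in every library that measured them, and HIST3H3 did not exceed 0.149 FPKM.

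HIST2H2AA4, HIST2H4A, HIST2H4B, HIST2H3A, HIST2H3C, HIST2H2BC, HIST2H2BD and HIST1H4K were listed at 0 in all 4 libraries of the knockout table. In the treatment table each was above 0 in all 5 libraries, HIST2H2AA4 at 1.96 FPKM in the combination, 3.06 FPKM in MC_2580, 1.83 FPKM in DMSO, 1.08 FPKM in RA 0.01 uM and 1.84 FPKM in RA 1 uM. Several of them are near-identical copies of one another (HIST2H4A and HIST2H4B, HIST2H3A and HIST2H3C, HIST2H2AA4 and HIST2H2AA3), so reads can be split between copies and their single values are uncertain.

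**Figure D1:**
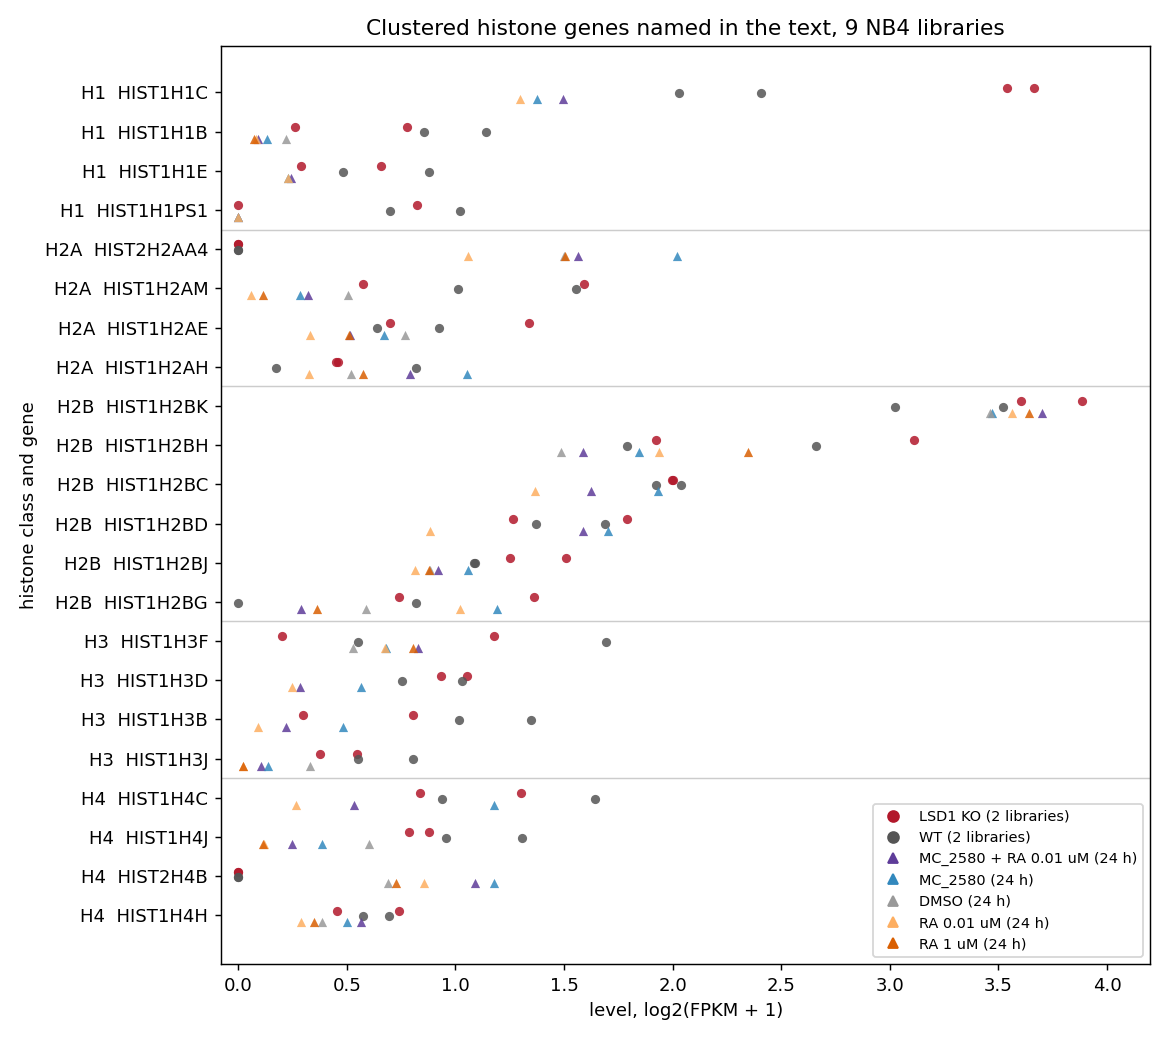
Level of the genes named by rule, as log2(FPKM + 1) on the x axis, by histone class; circles are the KO and WT libraries and triangles the treatment libraries. HIST1H2BK lies between 7.14 and 13.8 FPKM in all 9 libraries, HIST1H1C has both KO circles to the right of all its other points, and HIST2H2AA4 and HIST2H4B are at 0 in the KO and WT libraries.

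Genes that lie back to back had levels of the same order in some pairs and not in others. HIST1H2BL and HIST1H2AI, an H2B and an H2A gene whose starts are 244 bases apart, averaged 0.516 and 0.5003 FPKM. HIST1H2BG and HIST1H2AE, 233 bases apart, averaged 0.702 and 0.668 FPKM. HIST1H2BJ and HIST1H2AG, 248 bases apart, averaged 1.10 and 0.499 FPKM, and HIST1H3D averaged 0.657 FPKM against 0.0860 FPKM for its H2B partner HIST1H2BF.

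KO cells were set against WT cells to see how the histone genes stood in cells labelled LSD1 KO. In such bulk samples fewer cells that express a gene and less RNA per cell cannot be told apart. Of the 67 genes 14 had a group mean of at least 1 FPKM and were tested, and 0 passed an adjusted p of 0.05 in limma fitted over 13156 loci, of which 0.114% passed. At an unadjusted p under 0.05 there was 1 such gene, HIST1H1C, against 7.18% of all loci. In 3 genes both KO libraries were above both WT libraries (17.9% of all loci) and in 3 both were below (16.1% of all loci), while 8 overlapped. The median log2 difference of the 14 was 0.01, and that of all loci tested was -0.02.

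HIST1H1C encodes the linker histone H1.2. Its level was 10.6 and 11.7 FPKM in KO, against 4.31 and 3.08 FPKM in WT. Both KO libraries stood above both WT libraries, and the gap was wider than the spread within either group. The means were 11.2 ± 0.728 FPKM in KO and 3.69 ± 0.866 FPKM in WT (SD, n = 2 each), a ratio of 3.02. The log2 difference was 1.38 with SE 0.20 and an adjusted p of 0.231 in limma (unadjusted p 0.00288), the 164th lowest p of the loci tested, so the difference did not pass the threshold. In the treatment table HIST1H1C had 1.82 FPKM in the combination, 1.59 FPKM in MC_2580 and 1.46 FPKM in RA 0.01 uM, and no value in DMSO and RA 1 uM. Its locus is shared with 14 other clustered genes, among which HIST1H2BC and HIST1H2BD did not show such a gap: HIST1H2BC had 2.99 and 3.004 FPKM in KO and 3.10 and 2.79 FPKM in WT, and HIST1H2BD had 2.46 and 1.40 FPKM in KO and 2.22 and 1.58 FPKM in WT. HIST1H4D, too low to be tested, had 0.558 and 0.644 FPKM in KO and 0.289 and 0 FPKM in WT, without overlap. HIST1H3B and HIST1H2BF of this locus were lower in KO without overlap.

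The other H1 gene tested stood the other way. HIST1H1B, which encodes the linker histone H1.5, had 0.711 and 0.199 FPKM in KO libraries and 1.21 and 0.808 FPKM in WT libraries, with a log2 difference of -0.48 (SE 0.35, adjusted p 0.830, limma). Both KO values lay below both WT values, and 1 of the 4 reached 1 FPKM. HIST1H1E, which encodes H1.4 and was too low to be tested, had 0.578 and 0.223 FPKM in KO and 0.838 and 0.397 FPKM in WT, and these overlap. The pseudogene HIST1H1PS1 had 0 and 0.767 FPKM in KO and 1.03 and 0.621 FPKM in WT. Summed over all 8 H1 entries the level was 12.1 and 13.5 FPKM in KO and 7.93 and 5.16 FPKM in WT, most of it from HIST1H1C.

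Among H2B genes the differences were smaller than for HIST1H1C. HIST1H2BK had a log2 difference of 0.47 (SE 0.25) from the values given above, with both KO libraries above both WT libraries. HIST1H2BJ had 1.38 and 1.85 FPKM in KO and 1.12 and 1.13 FPKM in WT, again without overlap, with a log2 difference of 0.30 (SE 0.24). HIST1H2BG had 1.57 and 0.671 FPKM in KO and 0 and 0.762 FPKM in WT, which overlap. HIST1H2BH had 2.79 and 7.64 FPKM in KO and 2.46 and 5.32 FPKM in WT: the second replicate was the higher in both groups, and the groups overlapped. The summed H2B level was 27.3 and 27.0 FPKM in KO and 20.8 and 22.0 FPKM in WT, and the adjusted p of each H2B gene tested lay between 0.830 and 1.00 in limma.

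The 4 H3 and H4 genes tested had lower means in KO without passing the test, while untested members of both classes stood on either side, such as HIST1H3D with a mean of 0.995 FPKM in KO and 0.863 FPKM in WT. HIST1H3B had 0.745 and 0.230 FPKM in KO and 1.54 and 1.02 FPKM in WT, with no overlap and a log2 difference of -0.63 (SE 0.34). HIST1H3F had 0.149 and 1.26 FPKM in KO and 0.463 and 2.24 FPKM in WT, which overlap, and its difference was -0.43 (SE 0.60). HIST1H4J had 0.725 and 0.838 FPKM in KO and 0.939 and 1.47 FPKM in WT, with no overlap and a difference of -0.30 (SE 0.28). HIST1H4C had 1.46 and 0.789 FPKM in KO and 2.12 and 0.914 FPKM in WT, which overlap. The H2A genes tested, HIST1H2AE and HIST1H2AM, overlapped as well: HIST1H2AE had 1.53 and 0.624 FPKM in KO and 0.559 and 0.899 FPKM in WT, and HIST1H2AM had 0.490 and 2.01 FPKM in KO and 1.01 and 1.94 FPKM in WT. In limma the adjusted p of the 13 genes other than HIST1H1C was 0.830 or more.

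**Figure D2:**
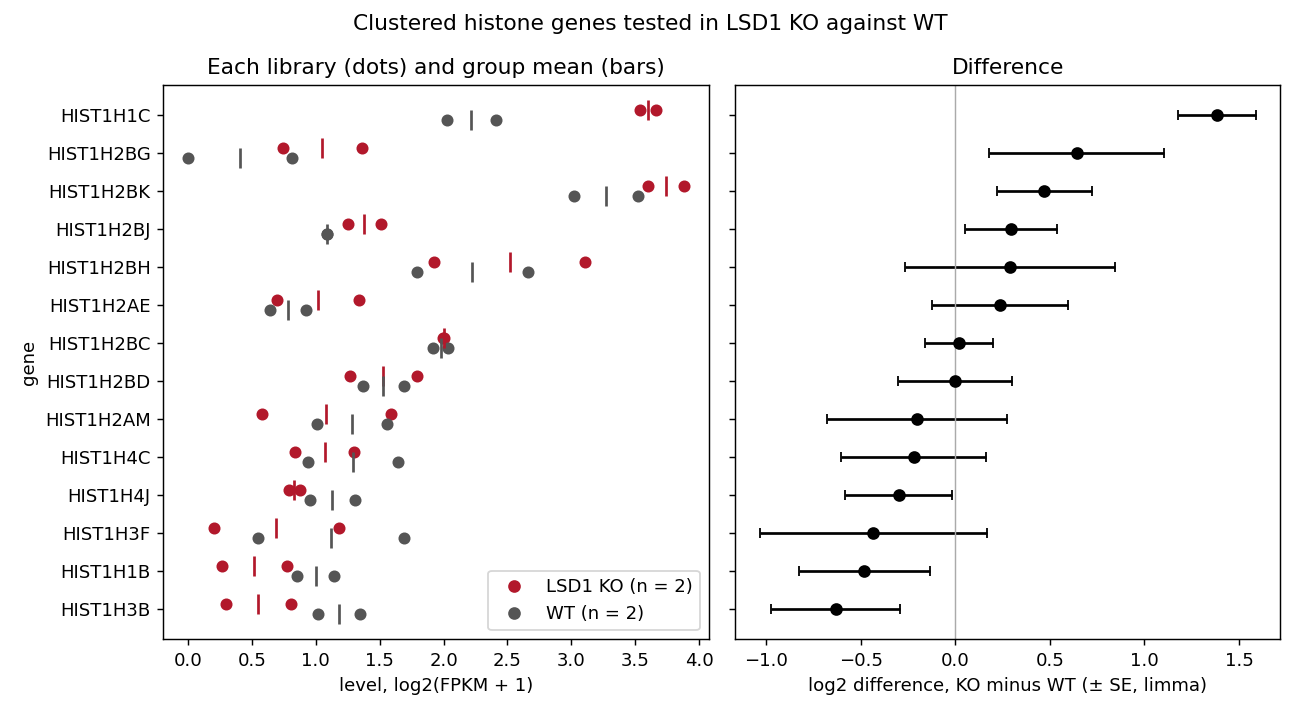
Left, level of the 14 genes tested as log2(FPKM + 1) in each KO and WT library (dots) with group means (bars, n = 2 each); right, the log2 difference KO minus WT with its limma SE. HIST1H1C at 1.38 is the one gene whose difference exceeds 1, HIST1H3B is lowest at -0.63, and 7 of the 14 differences lie above 0.

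The authors' deposited table compares KO 1 with WT 1 and KO 2 with WT 2, and it called 0 of 39 and 0 of 38 clustered histone genes that had enough data, against 0.746% and 0.632% of all loci. Marker lists moved with the same groups. Granulocyte and monocyte maturation genes, 8 on the list and 7 tested, had a summed level (6 genes) of 540 to 1070 FPKM in KO and 85.8 to 166 FPKM in WT, with 4 at an unadjusted p under 0.05 and 0 past the adjusted threshold. Lymphoid genes, 6 on the list and 4 tested, summed to 198 to 238 FPKM in KO and 71.8 to 118 FPKM in WT, with MS4A1 listed at 0 in all libraries. Their part in the HIST1H1C difference was not tested.

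For the treatments each group has 1 library, so differences have no replicate check, no p-value is given, and a gene was counted as higher or lower at 2-fold on the log2(FPKM + 1) scale. Set against the same rule, 8.59% of loci differed 2-fold between the 2 KO libraries and 9.05% between the 2 WT libraries, with 2 of 12 and 2 of 15 clustered histone genes among them. In the combination, MC_2580, RA 0.01 uM and RA 1 uM libraries against DMSO, 7, 10, 7 and 6 clustered genes could be compared. None was 2-fold higher, where 9.05%, 2.22%, 5.42% and 6.63% of all loci were. Exactly 1 was 2-fold lower in each, where 4.64%, 1.73%, 3.99% and 4.09% of all loci were. It was the same entry each time, the H2A pseudogene HIST1H2APS3, which had 3.34 FPKM in DMSO and was listed at 0 in the other 8 libraries. The combination against RA 0.01 uM alone had 0 of 10 past 2-fold in either direction (5.06% of loci higher, 1.92% lower), and RA 1 uM against RA 0.01 uM had 0 of 6 (1.93% higher, 1.68% lower). The comparisons with DMSO share that library.

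HIST1H2BK varied little between treatments, and lower genes varied more. HIST1H2BK, the one gene of the set above 5 FPKM in the treatment table, differed from DMSO by 0.24 in the combination, 0.01 in MC_2580, 0.10 in RA 0.01 uM and 0.18 in RA 1 uM on the log2 scale. HIST1H2BH had 2.01 FPKM in the combination, 2.59 FPKM in MC_2580 and, along the RA series, 1.805 FPKM in DMSO, 2.83 FPKM in RA 0.01 uM and 4.09 FPKM in RA 1 uM. Its log2 difference of RA 1 uM from DMSO was 0.86, the largest positive difference of the 6 clustered genes compared there, and the replicates of 1 genotype in the knockout table differed by more than these libraries did. HIST1H2BG had 0.221 FPKM in the combination, 1.28 FPKM in MC_2580, 0.503 FPKM in DMSO, 1.03 FPKM in RA 0.01 uM and 0.286 FPKM in RA 1 uM, with no order by dose. HIST2H4B had 1.13 FPKM in the combination, 1.26 FPKM in MC_2580, 0.611 FPKM in DMSO, 0.812 FPKM in RA 0.01 uM and 0.653 FPKM in RA 1 uM, so that both MC_2580 libraries were the highest. HIST1H2BD, missing in DMSO and RA 1 uM, had 2.00 FPKM in the combination, 2.25 FPKM in MC_2580 and 0.842 FPKM in RA 0.01 uM.

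Median log2 differences from DMSO were 0.07 in the combination, 0.27 in MC_2580, -0.44 in RA 0.01 uM and -0.21 in RA 1 uM, over the 7, 10, 7 and 6 genes compared. Over all loci they were -0.02, -0.02, -0.06 and -0.04. With the pseudogenes HIST1H2APS3, HIST2H2BC and HIST2H2BD left out, the medians were 0.17, 0.49, 0.27 and 0.18 in the same order. These rest on 4, 7, 4 and 3 genes, and the RA 1 uM median is the value of HIST1H2BK. Leaving the pseudogenes out was tried after the values were seen, and both RA medians turned positive. The summed level of the 52 genes measured everywhere was 28.4 FPKM in the combination, 33.3 FPKM in MC_2580, 31.2 FPKM in DMSO, 24.7 FPKM in RA 0.01 uM and 28.0 FPKM in RA 1 uM. The DMSO sum rests on the pseudogene HIST1H2APS3: with it left out, which was tried after the values were seen, the DMSO sum was 27.8 FPKM and the other 4 sums were the same, so DMSO lay between RA 0.01 uM and RA 1 uM. Among the classes the summed H2A level had the widest range, with 4.24, 7.06, 8.87, 2.92 and 4.15 FPKM in the same order, and HIST1H2APS3 gave 3.34 FPKM of the H2A sum in DMSO.

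A further comparison, chosen after the values were seen, set the 3 libraries with RA against the 2 without. Measured in all 5 libraries and above 0 in at least 1 were 44 clustered genes. Of these, 13 (29.5%) had every RA library below both RA-free libraries, against 23.2% of all loci. In 3 every RA library was above both, against 20.1% of all loci, and the remaining 28 overlapped. Those above were HIST1H1D, HIST1H3I and HIST1H2BK. HIST1H2BK, the highest gene of the set, had 10.8 to 12.0 FPKM with RA and 10.0 to 10.1 FPKM without. Of the 13, 8 lay in the single locus chr6:27885821-27969644 (hg18), where 12 of 13 clustered genes were measured above 0. As they share a locus, they may not be separate observations. Of 23 genes alone at their locus, 3 were among the 13. The ratio of the mean over RA libraries to the mean over RA-free libraries was lowest for HIST1H2AK at 0.0911 and highest for HIST1H1B at 0.455 among the 8, and all 8 stayed under 1 FPKM in the treatment table.

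HIST1H4K, an H4 gene of that locus, had 0.112 FPKM in the combination, 0.0862 FPKM in RA 0.01 uM and 0.0763 FPKM in RA 1 uM, against 0.632 FPKM in MC_2580 and 0.672 FPKM in DMSO. Its neighbour HIST1H4J had 0.187, 0.0858 and 0.0835 FPKM in the 3 RA libraries, against 0.305 FPKM in MC_2580 and 0.519 FPKM in DMSO. HIST1H3J, an H3 gene, had 0.0745, 0.0164 and 0.0144 FPKM in the RA libraries, against 0.0996 FPKM in MC_2580 and 0.256 FPKM in DMSO. HIST1H2AL, an H2A gene, had 0.0441, 0.0131 and 0.0199 FPKM in them, against 0.152 FPKM in MC_2580 and 0.188 FPKM in DMSO. In each the RA libraries lay below both others. HIST1H2AM, HIST1H2BM and HIST1H4L of the same locus overlapped between the groups, and HIST1H3I had 0.0489, 0.0314 and 0.0246 FPKM in the RA libraries, against 0.0190 FPKM in MC_2580 and 0.0194 FPKM in DMSO. Levels in this locus differed between the knockout and treatment tables. HIST1H3I had 0.618 and 0.466 FPKM in WT, far above its DMSO value, while HIST1H4K was listed at 0 in WT. Outside the locus HIST1H2AE had 0.429, 0.256 and 0.422 FPKM in the RA libraries, against 0.594 FPKM in MC_2580 and 0.703 FPKM in DMSO.

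**Figure D3:**
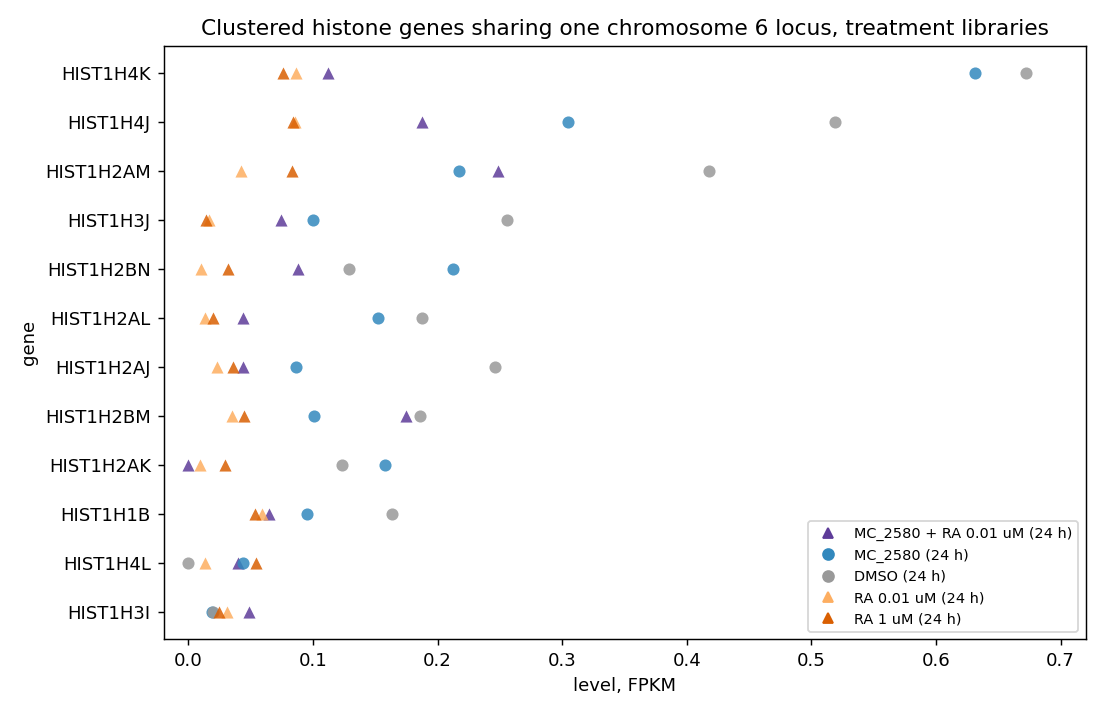
Level in FPKM (x axis, linear) of the 12 clustered histone genes measured above 0 in the chromosome 6 locus that holds 13 of them, in the 5 treatment libraries; triangles are libraries with RA and circles those without. For 8 genes, HIST1H4K and HIST1H4J among them, every triangle is left of both circles.

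The authors' deposited table, which tests single libraries, called 10 of 31 clustered genes in RA 0.01 uM against DMSO (4.55% of all loci), 6 of 31 in RA 1 uM against DMSO (5.08%), 3 of 31 in the combination against DMSO (6.44%) and 1 of 33 in MC_2580 against DMSO (1.06%). The authors' deposited table also called 8 of 44 between the combination and RA 0.01 uM (2.83%) and 4 of 29 in RA 1 uM against RA 0.01 uM (1.07%). All 10 genes that the authors' deposited table called in RA 0.01 uM against DMSO lie in the same locus on chromosome 6, and none of them reached 1 FPKM in any treatment library. Of these, 8 were lower in RA 0.01 uM, and 2 were higher: HIST1H3I had 0.0314 FPKM in RA 0.01 uM against 0.0194 FPKM in DMSO, and HIST1H4L had 0.0131 FPKM in RA 0.01 uM and was listed at 0 in DMSO. Other lists differed between the RA and RA-free libraries. S phase replication genes (17 of 18 measured everywhere) summed to 1525 FPKM in the combination, 1851 FPKM in RA 0.01 uM and 1912 FPKM in RA 1 uM, against 2057 FPKM in MC_2580 and 1961 FPKM in DMSO. Their median log2 difference from DMSO was -0.15 in RA 0.01 uM and -0.14 in RA 1 uM. RRM2 was higher with RA, at 118 to 165 FPKM against 91.5 to 98.1 FPKM without. PCNA, MCM2, MCM5 and POLA1 were higher in RA 1 uM than in DMSO. Promyelocyte genes (4 of 4) summed to 3410 to 3558 FPKM with RA and 5573 to 6855 FPKM without. That sum was mostly MPO, at 2454 to 2873 FPKM with RA and 5301 to 6518 FPKM without. PRTN3 went the other way, at 454 to 966 FPKM with RA and 178 to 219 FPKM without, and AZU1 and ELANE overlapped. Maturation genes (6 of 8) summed to 688 to 2362 FPKM with RA and 93.3 to 385 FPKM without. Among them LYZ was lower in RA 0.01 uM and RA 1 uM than in DMSO. The part of these lists in the histone values was not tested.

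The factors that make and process histone mRNA were expressed and did not pass any threshold. The list of 17, all tested, held NPAT, which activates histone genes at the G1/S transition, SLBP, the U7 snRNP proteins LSM10 and LSM11, the cleavage factors CPSF2, CPSF3 and SYMPK, and the decay factors ERI1 and UPF1. In KO against WT 0 passed the adjusted threshold in limma and 0 had an unadjusted p under 0.05, with a lowest adjusted p of 0.830 and a median log2 difference of -0.08, and 0 differed 2-fold in any of the 6 treatment comparisons. SLBP had 120 and 163 FPKM in KO and 128 and 172 FPKM in WT, and 107 FPKM in the combination, 158 FPKM in MC_2580, 150 FPKM in DMSO, 138 FPKM in RA 0.01 uM and 145 FPKM in RA 1 uM. The combination was the lowest of the 5 for SLBP, by -0.47 on the log2 scale against DMSO. NPAT had 7.70 and 10.3 FPKM in KO and 7.36 and 8.99 FPKM in WT, with overlap.

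The replication-independent histone variants, most of whose genes lie outside the clusters and give polyadenylated mRNA, were far more abundant in these libraries. Of 12 on the list 11 were found, and the 10 measured in every library summed to 1418 and 1766 FPKM in KO, 1404 and 2014 FPKM in WT and 1187 to 1385 FPKM in the treatment table, where the clustered genes of the 52 summed to 24.7 to 33.3 FPKM in all 9 libraries. In KO against WT 0 of 10 tested passed the adjusted threshold in limma, and 1 had an unadjusted p under 0.05. It was H2AFY, which encodes macroH2A1 and had 74.9 and 96.1 FPKM in KO and 158 and 154 FPKM in WT, without overlap, a log2 difference of -0.87 (SE 0.21) and an adjusted p of 0.486 in limma. H1F0, the linker histone known to build up in differentiating cells, was the 1 variant past 2-fold in any treatment comparison: it had 29.6 FPKM in the combination against 12.8 FPKM in DMSO, a log2 difference of 1.15. It had 13.7 FPKM in MC_2580 and, along the RA series from that DMSO value, 18.1 FPKM in RA 0.01 uM and 25.4 FPKM in RA 1 uM. In the knockout table H1F0 had 6.98 and 2.55 FPKM in KO and 9.45 and 4.81 FPKM in WT. On the log2(FPKM + 1) scale its 2 KO replicates thus differed by as much as the combination and DMSO libraries did.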

How the data were processed

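RNA-seq libraries of 9 NB4 samples were made from total RNA with a TruSeq V2 kit, per the labels' protocols. Per the file headers, the 2 tables the authors deposited hold FPKM in the layout of Cuffdiff output, with the authors' own calls. In the knockout table the authors had added 0.001 FPKM, which was subtracted. Tools listed by the submitters' processing notes, without role or order, are CASAVA 1.8, TopHat 1.3.1, TopHat2 2.0.10, Cufflinks and Cuffdiff, and the build is hg18. In the knockout table a value of 0 with the status FAIL or HIDATA was treated as missing, and in the treatment table any entry with either status.

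limma 3.58.1 (trend, R 4.3.3) tested KO against WT on log2(FPKM + 1), for loci averaging at least 1 FPKM in either genotype, with Benjamini-Hochberg adjustment over all of them and a threshold of 0.05. Fold changes on this scale understate those of low genes. Treatments were compared as differences of log2(FPKM + 1) for loci reaching 1 FPKM in either library. limma was checked on simulated data. Named genes were the 4 highest of each class, the 5 highest and 5 lowest KO differences, the genes of at least 5 FPKM in a treatment comparison, and list examples; genes of the shared locus, of the back-to-back pairs and HIST1H2APS3 were named after their values were seen. The members and lists were chosen with earlier results of these data known. All 67 genes matched RefSeq symbols and 54 a RefSeq promoter. Alternatives were another pseudocount, filter, fold size, scaling and gene set, a replicate block and leaving out each library. Python 3.11.15 with pandas 2.3.3 was used.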

Additional observations from a re-analysis of the deposited data

How the results depend on the processing

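In KO against WT, 0 clustered histone genes passed in limma under all 9 alternatives, while the loci called in all numbered 15 as reported, 59 with protein-coding genes only, 38 with a pseudocount of 0.1 FPKM, 17 with quantile normalization, and 0 without the filter, with the replicate block and without any 1 library. HIST1H1C kept a log2 difference of 1.19 to 1.59, with an adjusted p of 0.0908 (protein-coding genes only) to 0.748 (without KO replicate 1). The median over the clustered genes, 0.01, was -0.070 with quantile normalization and -0.033 to 0.093 with 1 library left out. KO and WT share replicate numbers, and the authors' deposited calls compare libraries of the same number, but nothing in the labels pairs them. Of the 14 genes tested, replicate 1 was below replicate 2 in both groups in 5, and above it in both groups in 5. With 2 numbers this and the correlation of the replicate differences over 13156 loci, 0.21, do not decide the pairing. With the replicate block 0 clustered genes passed, 2 of 14 had an unadjusted p under 0.05 (24.3% of all loci in that fit), and the median was 0.01.

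For the treatments, the 1 gene past 2-fold against DMSO became 0 in each of the 4 comparisons with a minimum of 5 FPKM and with pseudogenes left out. With a pseudocount of 0.1 FPKM, the count was 3 of 10 in MC_2580 (4.95% of all loci) and 2 of 6 in RA 1 uM (13.9%) against DMSO, and 2 of 10 in the combination (9.37%) and 1 of 6 in RA 1 uM (4.61%) against RA 0.01 uM. A minimum of 5 FPKM leaves HIST1H2BK alone, and the medians against DMSO were then 0.24 in the combination, 0.0082 in MC_2580, 0.10 in RA 0.01 uM and 0.18 in RA 1 uM. With pseudogenes left out they were 0.17, 0.49, 0.27 and 0.18, over 4, 7, 4 and 3 genes, and RA 1 uM against RA 0.01 uM had 0.24 over 4 genes. With a pseudocount of 0.1 FPKM they were 0.41 in MC_2580, -0.71 in RA 0.01 uM and -0.35 in RA 1 uM, and 0.29 in the combination against RA 0.01 uM. The 13 genes lower in every RA library became 7 of 19 at a minimum of 0.5 FPKM (36.8%, against 28.6% of all loci) and 3 of 23 among genes alone at their locus (13.04%, against 23.2%), alternatives chosen after seeing the data. The cause of these shifts was not tested. Low levels, 1 library per treatment and 2 per genotype limit what could be detected.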

Other observations

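Histone chaperones, which hand histones to and from DNA, were tested as a list of 12 of which 11 were found. In KO against WT 0 of 11 passed the adjusted threshold in limma and 0 had an unadjusted p under 0.05. Their summed level was 1431 and 1230 FPKM in KO and 1109 and 1066 FPKM in WT, and NAP1L1, an H2A-H2B chaperone, gave 900 and 447 FPKM of it in KO and 547 and 283 FPKM in WT. In the treatment table they summed to 847 FPKM in the combination, 981 FPKM in MC_2580, 1004 FPKM in DMSO, 887 FPKM in RA 0.01 uM and 875 FPKM in RA 1 uM, and 0 of 11 differed 2-fold in any of the 6 comparisons. NASP, a chaperone of H1 and H3-H4, had 77.6 FPKM in the combination, 88.9 FPKM in RA 0.01 uM and 89.4 FPKM in RA 1 uM. It had 114 FPKM in MC_2580 and 113 FPKM in DMSO.

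Proliferation genes (MKI67, TOP2A, CCNB1 and CDK1) summed to 386 and 484 FPKM in KO, 323 and 437 FPKM in WT and 347 to 386 FPKM in the treatment table. Erythroid genes were listed at 0 in 8 of the 9 libraries, and the 2 fibroblast and epithelial genes found summed to at most 1.54 FPKM, in RA 1 uM. The S phase list had a median log2 difference of -0.48 in the combination against DMSO, with GINS2 past 2-fold at -1.07, and of -0.04 in KO against WT.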
